A study of Homo sapiens with 44 samples.

Results

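Accessibility was described here at 10 genes that encode AP-1 transcription factors, in Ccd18-Co cells, human fibroblasts of the colon grown as an established line. The genes were FOS, FOSB, FOSL1, FOSL2, JUN, JUNB, JUND, BATF, BATF3 and ATF3, and were chosen with earlier results of these data known. AP-1 (activator protein 1) peaks were every row of the deposited coverage table named for 1 of these genes, matched by name without use of any measured value. These were 200 of 407383 peaks, namely 41 named for FOS, 35 for JUN, 27 for BATF, 22 for BATF3, 20 for FOSL2, 19 for FOSB, 17 for ATF3, 9 for FOSL1, 6 for JUND and 4 for JUNB. By the deposited classes, 22 were promoter, 13 exonic, 46 intronic and 119 distal peaks. All 200 passed the filter on low values, and for each of them the nearest start site of a protein-coding gene was that of the gene in its name.

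ATAC-seq marks open chromatin, since a transposase cuts and tags only the DNA that it can reach, so the values below are accessibility and not transcript levels. In such bulk libraries, a change in fewer cells and a smaller change in all cells cannot be told apart. The study stimulated the line with single cytokines to ask how each changes open chromatin in stromal cells. All 44 libraries, in 11 groups of 4, came from cells kept without serum for 72 h. The groups were unstimulated cells and cells given, for 24 h, IL-1β at 0.1 ng/ml, or 1 of 9 others at 10 ng/ml, namely OSM (oncostatin M), TNF, TGF-β1, IFNγ, IFNα, IL-22, IL-17A, IL-13 and IL-6. This IL-1β dose is the one in the study's methods, whereas a figure legend on the same cytokine responses gives a lower one. In the plots IL1B stands for IL-1β, IFNA for IFNα, IFNG for IFNγ and TGFB1 for TGF-β1. Every group is the same 1 cell line, and nothing in the labels says that replicates were separate cultures, so p-values measure the spread between these libraries, which may be technical.

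AP-1 is a family of basic leucine zipper proteins that bind DNA as dimers. Jun proteins pair with each other or with Fos proteins, whereas Fos proteins need a Jun partner. BATF and BATF3 pair with Jun proteins and lack the activation domain of Fos, and ATF3 is a stress-induced member that can act as a repressor. The dimers bind the string TGANTCA, and pairs with ATF proteins also bind the cAMP response element (CRE), TGACGTCA. FOS, FOSB and JUNB are classical immediate early genes, whose transcription is switched on within minutes by growth factors and serum through MAP kinases, and AP-1 drives matrix protease and cytokine genes in activated fibroblasts.

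Coverage in the 44 libraries ran from 148.8 to 823.1 Mb with a median of 416.3 Mb. Values are given as coverage per Mb, that is, summed base coverage of a 500-base peak per Mb of coverage in the library. With reads of 75 bases, a count of 3 reads came to 0.274 per Mb in the deepest library and 1.52 per Mb in the shallowest, IL-6 replicate 4, in which 27.1% of all peaks were at 0. OSM libraries had 13.8 ± 3.29% of peaks at 0 and TGF-β1 libraries 4.44 ± 3.12%, against 7.52 ± 3.03% in unstimulated libraries (mean ± SD, n = 4 each). The labelled cell type was checked against the promoter-class peaks of marker genes. Of 10 fibroblast markers 7 had such a peak, with a median of 12.9 per Mb. The highest was at COL1A1 (24.9) and the lowest were at LUM (0.548) and VIM (1.62), and DCN, PDGFRA and THY1 had none. Such a peak was found for 1 of 6 epithelial markers (KRT8, 4.55) and 3 of 5 leukocyte markers. Among the leukocyte markers CD68 reached 14.5 per Mb, the 3 endothelial markers lay between 0.429 and 1.55, and 2 of 3 smooth muscle markers had a peak (0.806 and 9.13).

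Sequences are shown for the promoters of FOS, a classical serum-induced gene, and of JUN and JUND, which held an AP-1-related string, and for peaks on which the results below turn. The 250 bases before the annotated start come from the RefSeq promoter table (build GRCh38.p14), on the gene's own strand, and capitals mark TGANTCA or TGACNTCA on either strand. TGACNTCA includes the CRE, and neither string overlaps the other in these windows.
FOS promoter, chr14:75278578-75278827, plus strand: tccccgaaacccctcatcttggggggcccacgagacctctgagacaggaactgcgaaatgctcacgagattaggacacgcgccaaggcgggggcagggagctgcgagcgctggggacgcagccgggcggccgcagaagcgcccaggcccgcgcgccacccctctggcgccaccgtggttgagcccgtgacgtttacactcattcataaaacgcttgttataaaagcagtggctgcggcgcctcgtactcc
JUN promoter, chr1:58784048-58784297, minus strand: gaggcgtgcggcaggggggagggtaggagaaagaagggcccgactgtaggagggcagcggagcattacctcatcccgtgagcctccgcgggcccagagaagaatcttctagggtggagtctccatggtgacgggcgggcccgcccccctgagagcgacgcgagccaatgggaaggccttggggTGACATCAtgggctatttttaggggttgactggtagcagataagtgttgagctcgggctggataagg
JUND promoter, chr19:18281623-18281872, minus strand: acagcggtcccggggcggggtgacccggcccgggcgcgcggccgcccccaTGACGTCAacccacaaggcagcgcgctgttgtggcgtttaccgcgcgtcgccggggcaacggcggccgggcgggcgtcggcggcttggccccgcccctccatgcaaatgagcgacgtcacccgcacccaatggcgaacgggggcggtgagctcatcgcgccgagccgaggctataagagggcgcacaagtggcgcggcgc
The FOS window held neither string, the JUN window held TGACATCA and the JUND window TGACGTCA. Over 35116 RefSeq promoters of the same length, 6.57% held TGANTCA and 6.87% TGACNTCA. The table had 9 entries for 8 of the 10 genes, with 2 for ATF3 and not FOSL1 or BATF3. Of these 9, 0 held the first string and 3 the second, namely JUN, JUND and 1 of the ATF3 starts.

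The next 4 sequences are the central 300 bases of member peaks, on the plus strand of hg38, and here capitals mark TGANTCA, TGACNTCA or TTCNNNGAA, the string bound by STAT factors. Each is the peak with the highest F of its gene.
FOS peak 11.6 kb upstream, chr14:75267076-75267375: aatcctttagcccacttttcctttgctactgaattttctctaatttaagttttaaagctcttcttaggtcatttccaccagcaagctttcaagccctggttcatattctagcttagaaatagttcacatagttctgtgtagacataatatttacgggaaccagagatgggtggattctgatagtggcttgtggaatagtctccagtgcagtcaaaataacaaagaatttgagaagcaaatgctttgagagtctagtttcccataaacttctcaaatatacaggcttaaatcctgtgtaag
FOSL1 peak 2.94 kb upstream, chr11:65903183-65903482: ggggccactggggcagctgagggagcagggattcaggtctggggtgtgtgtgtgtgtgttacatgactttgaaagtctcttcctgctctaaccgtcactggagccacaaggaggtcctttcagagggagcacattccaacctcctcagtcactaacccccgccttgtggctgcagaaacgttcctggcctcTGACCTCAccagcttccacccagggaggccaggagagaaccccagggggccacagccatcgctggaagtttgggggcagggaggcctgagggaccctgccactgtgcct
BATF intronic peak 13.6 kb downstream, chr14:75535934-75536233: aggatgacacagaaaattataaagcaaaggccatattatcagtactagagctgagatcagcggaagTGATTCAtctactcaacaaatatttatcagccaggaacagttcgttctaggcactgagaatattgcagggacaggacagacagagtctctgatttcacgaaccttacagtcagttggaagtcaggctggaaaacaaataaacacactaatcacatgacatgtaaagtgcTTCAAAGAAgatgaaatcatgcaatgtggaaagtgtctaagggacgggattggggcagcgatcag
BATF3 distal peak 32.2 kb downstream, chr1:212667448-212667747: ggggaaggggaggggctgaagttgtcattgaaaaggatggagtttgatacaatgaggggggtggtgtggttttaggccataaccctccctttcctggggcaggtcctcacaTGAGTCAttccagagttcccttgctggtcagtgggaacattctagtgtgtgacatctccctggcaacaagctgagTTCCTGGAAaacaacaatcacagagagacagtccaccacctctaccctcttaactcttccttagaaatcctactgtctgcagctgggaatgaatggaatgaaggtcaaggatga
The FOS window held none of the 3 strings, although its peak was the member peak that differed most between groups. The FOSL1 window held TGACCTCA. The BATF and BATF3 windows each held a TGANTCA string (TGATTCA and TGAGTCA) and a STAT string. A match is a description of letters and not a bound site.

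Across the 11 groups, 79 of the 200 member peaks varied by limma's moderated F-test at an adjusted p under 0.05, which is 39.5% of them against 21.1% of all 407176 peaks tested. The 2 sets were not matched for coverage level, and whether this bears on the 2 shares was not tested. FOS had 20 of its 41 peaks among these, FOSB 12 of 19, JUN and BATF3 8 each, BATF 7, ATF3 and FOSL2 6 each, FOSL1 and JUND 5 each and JUNB 2. Compared with unstimulated cells, 146 member peaks were called for none of the 10 cytokines, 31 for 1 and 23 for 2 to 7. The 10 comparisons share the 4 unstimulated libraries, so they are given side by side and not as independent counts.

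TNF lowered 18 member peaks and raised 5 (background over all tested peaks 1.69% lowered and 2.67% raised). IL-1β lowered 9 and raised 3 (background 1.79% and 1.72%). IL-13 lowered 11 and raised 2 (0.88% and 0.73%), and IL-6 lowered 9 and raised 0 (0.0643% and 0.0427%). OSM raised 21 and lowered 0 (1.55% and 1.29%). TGF-β1 lowered 10 and raised 4 (1.52% and 1.98%). IFNγ lowered 5 and raised 3 (0.275% and 1.48%), and IFNα lowered 5 and raised 0 (0.334% and 0.513%). IL-17A raised 1 (0.0398% in either direction). IL-22 called 0 by limma (background 0.0366% in either direction), with 23 member peaks at an unadjusted p under 0.05 and 0 called under every other setting tried. The counts thus went mostly down with TNF, IL-1β, IL-13, IL-6, TGF-β1 and IFNα and up with OSM. Most of the falls with TNF, IL-1β, IL-13 and IL-6 were at FOS alone. It held 16 of the 18 with TNF, 7 of the 9 with IL-1β, 7 of the 11 with IL-13 and 6 of the 9 with IL-6. The 5 peaks raised by TNF were all FOSL1 peaks. These directions are therefore not shared by the 10 genes. Some counts rest on single libraries. The TGF-β1 count of 14 was 8 without unstimulated replicate 3 and 9 without TGF-β1 replicate 1. The IFNγ count of 8 was 5 without unstimulated replicate 1. The IFNα count of 5 was 3 without unstimulated replicate 1 or IFNα replicate 2, and 2 without unstimulated replicate 3 or IFNα replicate 3 or 4.

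**Figure D1:**
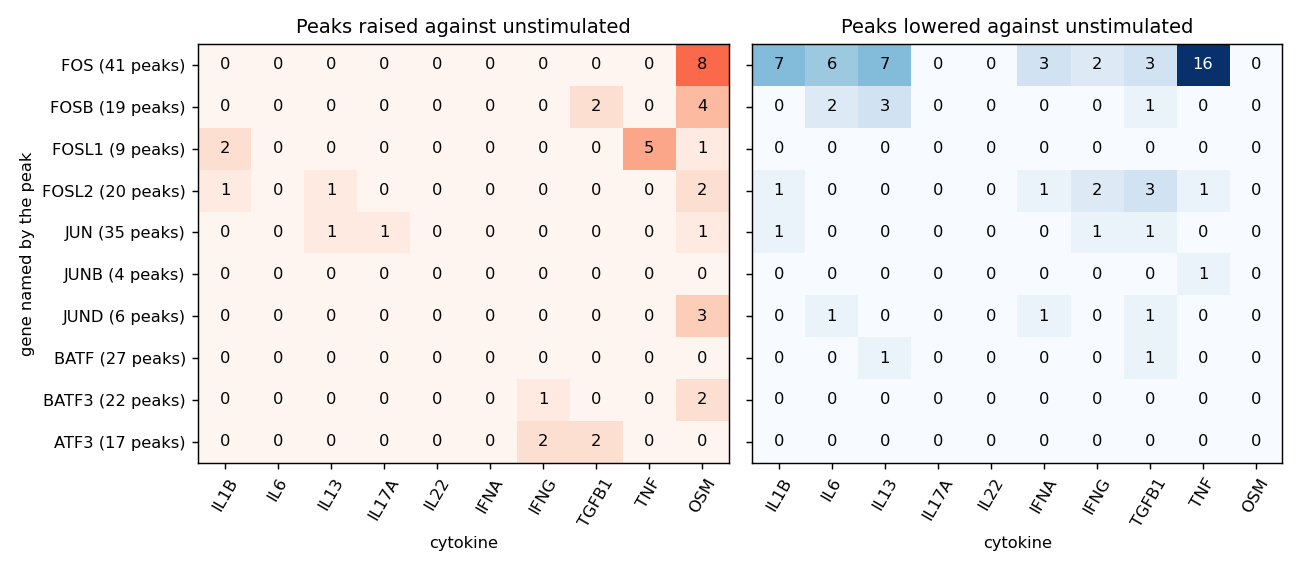
Number of peaks of each AP-1 gene called raised (left) or lowered (right) against unstimulated cells at an adjusted p under 0.05, by gene (rows, with the number of peaks) and cytokine (columns). FOS holds 16 of the 18 peaks lowered by TNF and 8 of the 21 raised by OSM.

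The OSM count moved with the scaling. The median log2 change over all tested peaks was -0.22 with OSM and 0.15 with TGF-β1, and over the members 0.07 and 0.08. With a composition factor computed over all tested peaks, an alternative chosen after seeing the data, OSM raised 45 member peaks and lowered 0, and the raised share of all OSM calls was 79.7% in place of 54.6%. With a GC correction OSM raised 35 member peaks, and 88.9% of all OSM calls were raised. With array quality weights OSM raised 30 and lowered 5, and with loess offsets it raised 15 and lowered 1. For TGF-β1 these scalings gave 2 raised and 15 lowered member peaks (composition factor) and 2 raised and 14 lowered (GC), and raised shares over all calls of 27.7% and 27.3% in place of 56.5%. On average 50.7% of the bases in member peaks were G or C, and 46.7% over the whole tested set.

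FOS encodes the founding Fos protein, and its peaks had more calls than those of any other member. TNF lowered 16 of the 41 FOS peaks, and these included every one of 11 consecutive peaks from 1.73 kb before to 5.27 kb after the start. In the promoter-class peak with the highest mean, chr14:75276847-75277347 at 1.73 kb before the start, the 4 unstimulated libraries held 20.2, 19.3, 29.9 and 20.4 per Mb and the TNF libraries 13.0, 9.90, 16.8 and 15.4. The groups did not overlap, and replicate 3 stood above the other unstimulated libraries. The difference was -0.69 ± 0.13 (log2 change ± SE, adjusted p = 5e-05). The promoter peaks at 1.10 and 0.603 kb before the start were lowered by 0.89 and 0.94 on the log2 scale. Without unstimulated replicate 3, TNF lowered 15 FOS peaks.

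The lowering was deeper inside and behind the gene. At chr14:75280706-75281206, an exonic peak 2.13 kb after the start, unstimulated libraries held 19.1, 13.2, 14.7 and 12.7 per Mb, TNF libraries 5.31, 5.82, 3.56 and 4.83, and OSM libraries 28.5, 25.2, 30.2 and 30.8. All 4 TNF libraries lay under and all 4 OSM libraries above every unstimulated library. The log2 changes were -1.52 ± 0.17 with TNF (adjusted p = 1.6e-13) and 0.94 ± 0.17 with OSM (adjusted p = 4.2e-05). In the 7 peaks between 1.17 and 5.27 kb after the start, TNF lowered 7, with log2 changes of -1.52 to -0.67, and OSM raised 7, with 0.61 to 0.97.

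Other cytokines moved this 7-peak stretch the way TNF did. IL-6 lowered 6 of the 7 (log2 changes of -1.13 to -0.40 over all 7), IL-13 lowered 5 (-1.02 to -0.43 over all 7), IL-1β and IFNα 3 each and IFNγ 2. TGF-β1, IL-17A and IL-22 called 0 of the 7. The exonic peak 2.82 kb after the start, chr14:75281401-75281901, showed the spread between cytokines. It held 12.2 ± 1.05 per Mb in unstimulated cells, 4.90 ± 0.961 with IFNα, 4.94 ± 2.02 with TNF, 5.62 ± 2.38 with IL-6, 6.18 ± 1.54 with IFNγ, 6.42 ± 0.816 with IL-13, 7.56 ± 1.40 with IL-1β and 22.9 ± 3.79 with OSM (mean ± SD, n = 4 each). The 6 lowered groups were all called and lay close to each other, although the IL-1β call was lost in 7 of 19 alternative settings, and the TNF, IL-6 and IFNα means differed by less than the SD of the TNF group. Peak chr14:75282532-75283032, 3.95 kb after the start, held 4.62 ± 1.04 with TNF, 6.30 ± 1.32 with IL-13 and 20.5 ± 3.00 with OSM, and all 4 TNF libraries lay below every unstimulated one. The OSM call at this peak was lost in 7 of 19 alternative settings.

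The IL-6 counts depended on single libraries. Without IL-6 replicate 4, the shallowest library, IL-6 lowered 1 FOS peak in place of 6 and 3 member peaks in place of 9. The 3 were the FOS peak at 4.65 kb and the FOSB peaks at 2.40 and 4.84 kb after their starts. At the 6 FOS peaks the log2 changes without that library were all -0.66 or lower. Without unstimulated replicate 3 the counts were 2 FOS and 5 member peaks, and without unstimulated replicate 1 or 4 IL-6 lowered 3 FOS peaks. The count of FOS peaks lowered by TNF stayed between 14 and 16 under every setting tried, and that raised by OSM between 6 and 13.

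**Figure D2:**
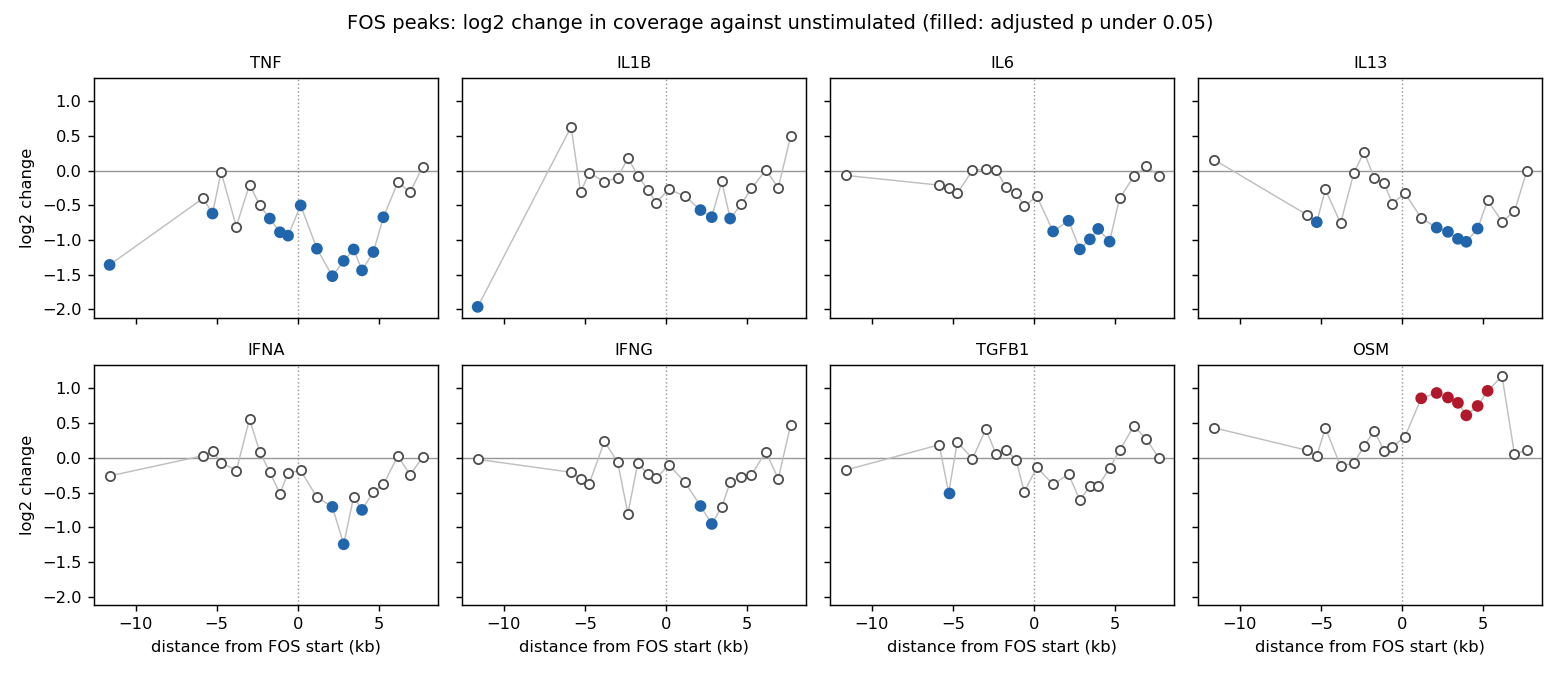
Log2 change against unstimulated cells (y axis) of each FOS peak between 16 kb before and 8 kb after the FOS start (x axis, kb), with 1 panel for each of 8 cytokines. Filled points passed an adjusted p under 0.05 (blue lowered, red raised), and open points did not. The TNF panel shows a filled run from -1.73 to 5.27 kb, and the OSM panel a raised run from 1.17 to 5.27 kb.

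Upstream of FOS the pattern was different. Peak chr14:75266976-75267476, 11.6 kb before the start, had the highest F of all member peaks (29.1, adjusted p = 2.5e-35) and is the FOS peak printed above. It held 10.5, 11.2, 10.9 and 11.7 per Mb in unstimulated libraries, 2.28, 3.03, 2.87 and 1.85 with IL-1β and 4.03, 4.87, 3.90 and 3.40 with TNF. Both cytokine groups lay wholly under the unstimulated libraries, and the IL-1β libraries under the TNF libraries. The log2 changes were -1.96 ± 0.18 with IL-1β (adjusted p = 9.9e-19) and -1.36 ± 0.18 with TNF (adjusted p = 9.5e-10), and the other 8 cytokines were not called there. OSM had a mean of 15.2 ± 1.59 at this peak, above the unstimulated 11.1 ± 0.487, without a call.

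IL-1β lowered 7 FOS peaks in all, and 4 without unstimulated replicate 3 or without IL-1β replicate 3. A peak 36.1 kb upstream was lowered by IL-1β (-0.98 ± 0.18, adjusted p = 1.6e-05) and TNF (-1.01 ± 0.18, adjusted p = 5.2e-06) and raised by OSM (0.89 ± 0.18, adjusted p = 0.00022). At 44.2 kb upstream, chr14:75234424-75234924, unstimulated libraries held 6.99, 4.89, 7.67 and 6.12 and IL-1β libraries 1.69, 2.08, 5.52 and 3.22, so that 1 IL-1β library lay within the unstimulated range (log2 change -1.03 ± 0.23, adjusted p = 0.00078). This peak held a TGANTCA string. TGF-β1 and TNF lowered chr14:75258044-75258544, 20.5 kb upstream, from 9.03 ± 1.68 per Mb to 4.30 ± 1.12 and 4.07 ± 0.602 (adjusted p = 0.00087 and 0.00022). A GC-rich peak 19.8 kb upstream with a mean of 38.1 per Mb was lowered by less, by 0.47 with IL-1β, 0.37 with IL-13, 0.36 with TGF-β1 and 0.32 with TNF on the log2 scale.

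**Figure D3:**
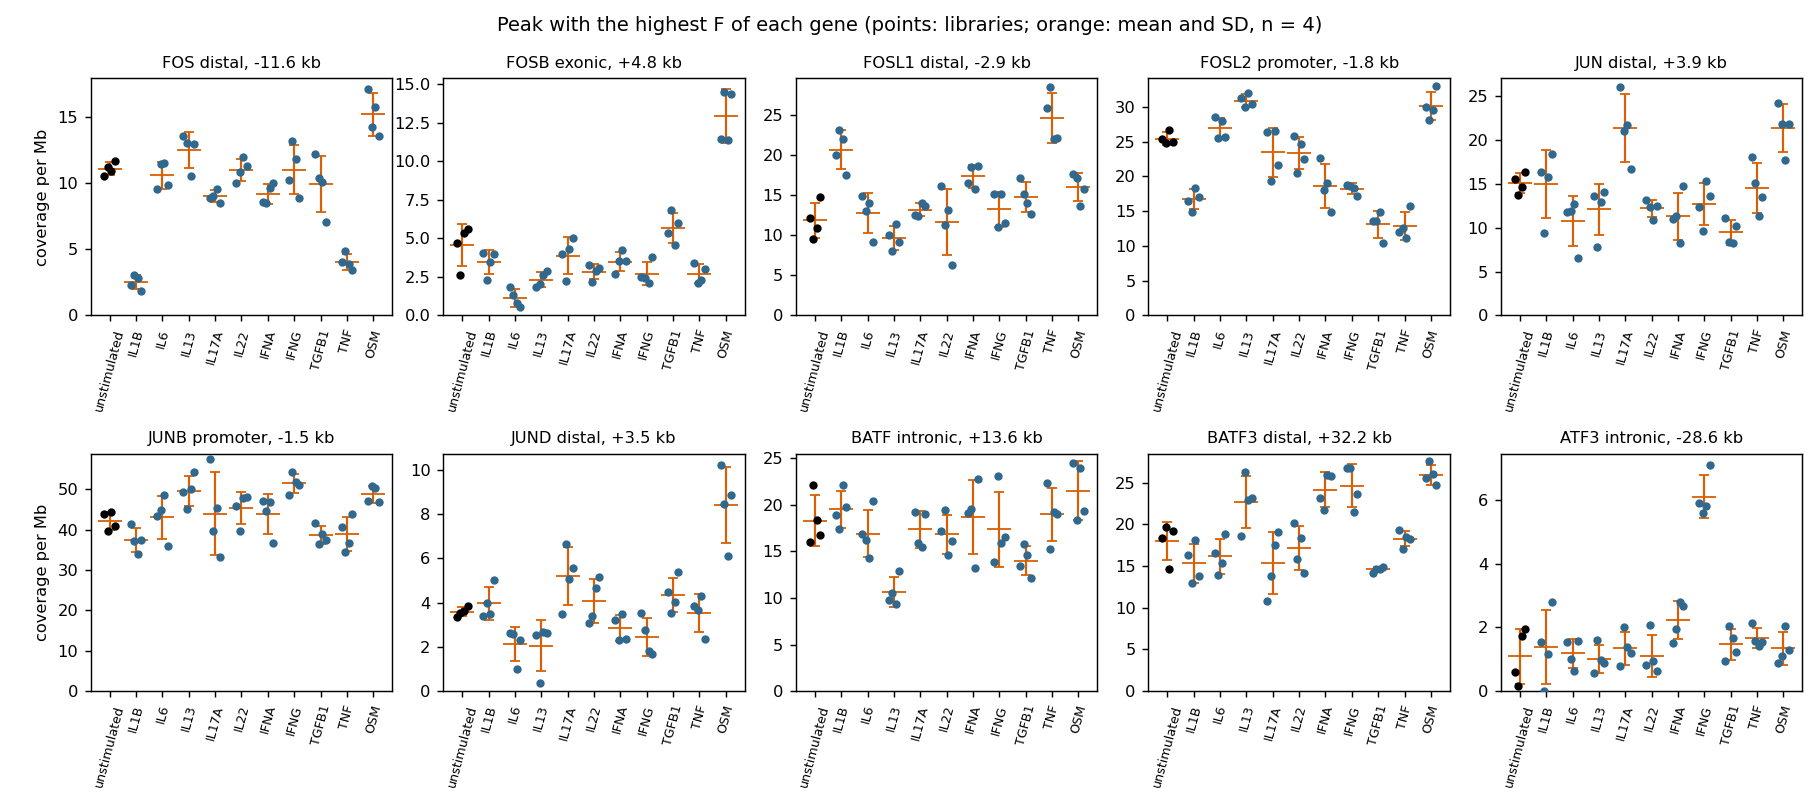
Coverage per Mb (y axis) in each library (points) of the 11 groups (x axis) for the peak with the highest F of each AP-1 gene, with mean and SD (orange, n = 4). Panel titles give the class and the distance from the gene's start. The FOS panel shows IL-1β libraries from 1.85 to 3.03 and unstimulated libraries from 10.5 to 11.7.

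FOSB encodes a Fos protein close to FOS, and its peaks shared the OSM result. OSM raised 4 of the 19 FOSB peaks, and these were the 4 between 2.40 and 4.84 kb after the start, with log2 changes of 0.98 to 1.45. At chr19:45472583-45473083, 4.84 kb after the start, unstimulated libraries held 4.67, 2.59, 5.37 and 5.59 per Mb, OSM libraries 11.5, 14.5, 11.4 and 14.3, and IL-6 libraries 1.82, 1.33, 0.833 and 0.539. OSM libraries lay above and IL-6 libraries under every unstimulated library, with log2 changes of 1.45 ± 0.27 (adjusted p = 4.3e-05) and -1.65 ± 0.27 (adjusted p = 0.00024). The exonic peak at 3.37 kb, chr19:45471114-45471614, went from 5.00 ± 1.23 to 13.1 ± 1.95 per Mb with OSM (adjusted p = 0.00014). Under every setting tried, the count of FOSB peaks raised by OSM ran from 4 to 6. These positions also lie inside the annotated span of ERCC1 on the opposite strand, so accessibility there cannot be assigned to FOSB alone.

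IL-13 and TGF-β1 moved other parts of the FOSB locus. IL-13 lowered 3 peaks, including chr19:45454319-45454819 at 13.4 kb upstream, where unstimulated libraries held 3.01, 3.44, 1.33 and 2.14 and IL-13 libraries 0.586, 0.521, 0.877 and 0.666 per Mb (log2 change -1.31 ± 0.32, adjusted p = 0.0079). The IL-13 values are near the limit of a few reads. TGF-β1 raised chr19:45456169-45456669, 11.6 kb upstream, from 11.3, 6.79, 12.8 and 9.60 to 22.3, 14.1, 21.1 and 17.8 per Mb (0.88 ± 0.17, adjusted p = 0.0001), without overlap between the groups. It also raised chr19:45464993-45465493, 2.75 kb upstream, from 1.36 ± 0.510 to 3.96 ± 1.54 (1.25 ± 0.37, adjusted p = 0.031), a call lost in 7 of 19 alternative settings. The FOSB promoter peak held 7.25 ± 0.544 per Mb in unstimulated cells and between 4.64 and 8.64 per Mb on average over the cytokine groups. It was called for none of the 10 cytokines, although it varied by the F-test (adjusted p = 0.00071).

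**Figure D4:**
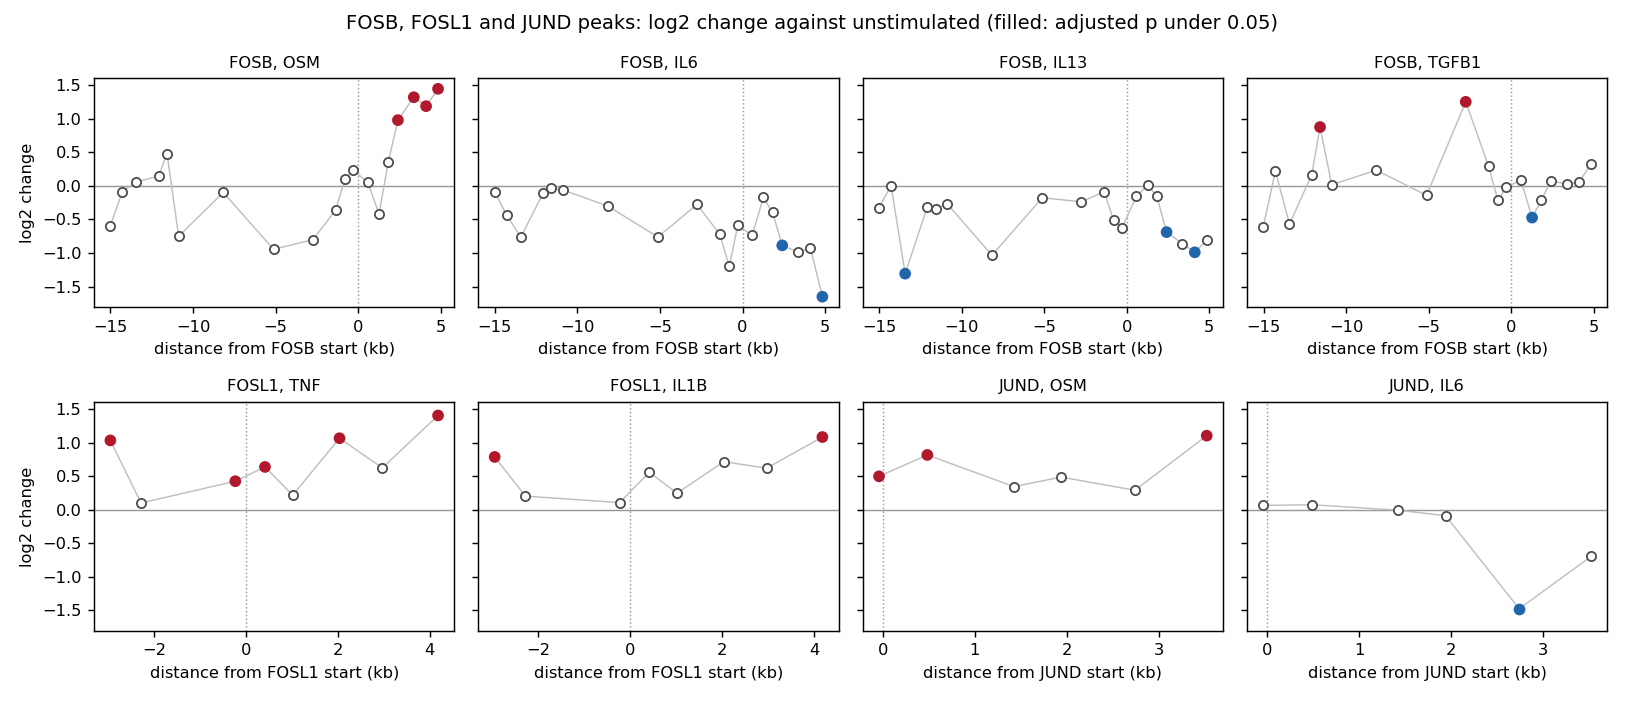
Log2 change against unstimulated cells (y axis) by distance from the start (x axis, kb) for FOSB peaks with OSM, IL-6, IL-13 and TGF-β1 (top) and for FOSL1 peaks with TNF and IL-1β and JUND peaks with OSM and IL-6 (bottom). Filled points passed an adjusted p under 0.05. The FOSB peaks from 2.40 to 4.84 kb are raised with OSM, and FOSL1 peaks lie above 0 with TNF and IL-1β.

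FOSL1 encodes FRA1, a Fos-related protein without the FOS activation domain, and its locus went the opposite way to FOS with TNF. TNF raised 5 of the 9 FOSL1 peaks and lowered 0, and IL-1β raised 2. At chr11:65903083-65903583, the peak 2.94 kb upstream printed above, unstimulated libraries held 12.2, 9.52, 11.0 and 14.8 per Mb, IL-1β libraries 20.0, 23.1, 22.1 and 17.5 and TNF libraries 25.9, 28.4, 22.0 and 22.1. Neither treated group overlapped the unstimulated one, and the log2 changes were 0.79 ± 0.16 (adjusted p = 0.00011) and 1.03 ± 0.16 (adjusted p = 5.3e-08). The intronic peak chr11:65895956-65896456, 4.18 kb after the start, held 1.87 ± 0.843 per Mb in unstimulated cells, 4.27 ± 0.663 with IL-1β and 5.43 ± 0.461 with TNF (adjusted p = 0.0078 and 0.0001). Another intronic peak at 2.04 kb, chr11:65898099-65898599, rose by 1.06 ± 0.26 with TNF (adjusted p = 0.0023).

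At the FOSL1 promoter peak, chr11:65900365-65900865, unstimulated libraries spread from 18.0 to 29.0 per Mb and TNF libraries from 25.0 to 32.3. The groups overlapped, and the log2 change of 0.42 ± 0.12 (adjusted p = 0.015) was smaller than at the flanking peaks. Without unstimulated replicate 2, TNF raised 3 of the 9 peaks in place of 5. OSM raised 1 FOSL1 peak, at 2.97 kb after the start (0.80 ± 0.24, adjusted p = 0.04), which held a TGANTCA string.

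FOSL2 encodes FRA2, the other Fos-related protein. Its promoter-class peak chr2:28390844-28391344, 1.76 kb before the start, had the highest F of any gene but FOS (23.8, adjusted p = 9e-30). Unstimulated libraries held 25.4, 24.8, 26.7 and 24.9 per Mb, TNF libraries 12.0, 12.6, 11.1 and 15.7, TGF-β1 libraries 13.6, 13.6, 14.8 and 10.4, and IL-1β libraries 16.4, 14.9, 18.4 and 17.1. None of these 3 groups overlapped the unstimulated libraries. The log2 changes were -0.97 ± 0.13 with TNF, -0.94 ± 0.13 with TGF-β1 and -0.60 ± 0.13 with IL-1β (adjusted p = 1.7e-10, 1.5e-09 and 0.0004). IFNγ (-0.47 ± 0.13, adjusted p = 0.02) and IFNα (-0.45 ± 0.13, adjusted p = 0.048) also lowered it, but of 19 alternative settings the IFNγ call was lost in 5 and the IFNα call in 9, both with GC correction among them.

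The neighbouring FOSL2 peak did not follow this pattern. Peak chr2:28390063-28390563, 2.54 kb before the start, was raised by OSM from 20.1, 18.1, 19.4 and 20.9 to 32.6, 33.0, 31.5 and 38.7 per Mb (0.77 ± 0.13, adjusted p = 1.8e-06). IL-13 raised it to 31.3, 33.6, 31.7 and 30.0 (0.68 ± 0.13, adjusted p = 8.5e-05), and it was called for none of the cytokines that lowered the promoter-class peak. The peak over the FOSL2 start, 0.146 kb before it, had a mean of 46.4 per Mb and changed by 0.30 ± 0.09 with OSM (adjusted p = 0.044). A distal peak at chr2:28366453-28366953, 26.2 kb upstream, was raised by IL-1β from 0.607 ± 0.760 to 1.85 ± 0.709 per Mb (adjusted p = 0.024), with 1.58 in the highest unstimulated library and 1.34 in the lowest IL-1β library, so that the groups overlapped.

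**Figure D5:**
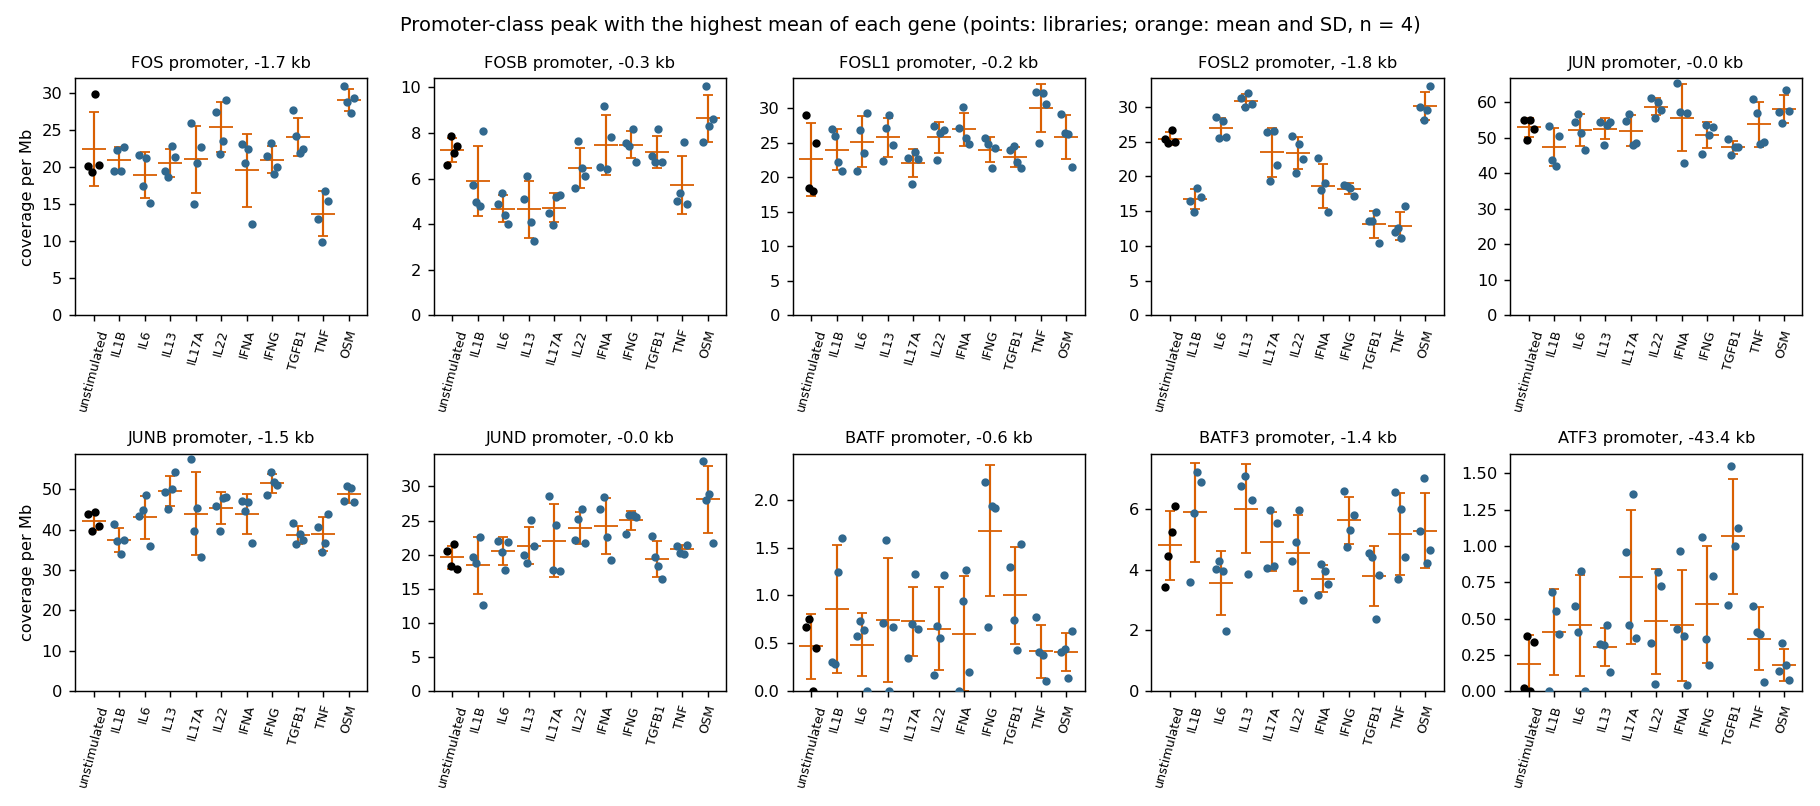
Coverage per Mb (y axis) in each library (points) of the 11 groups (x axis) for the promoter-class peak with the highest mean of each AP-1 gene, with mean and SD (orange, n = 4). JUN and JUNB lie above the other genes' unstimulated libraries, FOSL2 falls to between 10.4 and 15.7 with TGF-β1 and TNF, and BATF and ATF3 stay near the limit of a few reads. The ATF3 peak shown lies 43.4 kb before the start of its reference transcript.

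Of the promoter-class peaks, those of JUN and JUNB had the highest levels. All peaks have the same length, so levels can be set side by side per peak. In unstimulated libraries the JUN promoter peak, chr1:58783803-58784303, held 55.1, 49.2, 54.9 and 52.3 per Mb, the highest of the 10 genes. JUNB followed with 43.7, 39.6, 44.3 and 40.8 at chr19:12789747-12790247, and JUN and JUNB did not overlap. FOSL2 came next at 25.5 ± 0.867, then FOSL1 at 22.6 ± 5.33, FOS at 22.4 ± 4.99 and JUND at 19.6 ± 1.74 (mean ± SD, n = 4 each), and each of these 4 differed from the next by less than the SD of FOSL1 or FOS. FOSB had 7.25 ± 0.544, BATF3 4.81 ± 1.13, BATF 0.470 ± 0.339 and ATF3 0.185 ± 0.201. BATF and ATF3 were at or near the limit of 3 reads and did not differ beyond their spread. This order holds only for peaks of the deposited promoter class. The FOSL2 peak over its start, classed intronic, was more accessible than the FOSL2 peak used here. The ATF3 peak used here lies 43.4 kb before the start of its reference transcript, and the peak just before that start, given below, was far higher.

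JUN encodes the Jun protein that can pair with itself and with every Fos protein. Its promoter peak was called for 0 of the 10 cytokines, and group means ran from 47.3 with IL-1β and TGF-β1 to 58.7 with IL-22. The other promoter-class JUN peak, 0.736 kb after the start, was lowered by IL-1β (-0.58 ± 0.18, adjusted p = 0.034) and IFNγ (-0.68 ± 0.18, adjusted p = 0.012). At 5.46 kb after the start, the distal-class peak chr1:58778341-58778841 held 3.69, 5.03, 3.98 and 3.39 per Mb in unstimulated libraries and 8.90, 14.4, 10.3 and 5.51 with IL-17A. It lies inside the annotated span of JUN. This peak was the only member peak called for IL-17A (1.13 ± 0.22, adjusted p = 0.0063), and the call was lost without IL-17A replicate 2 or 3. OSM raised the same peak to 8.01, 10.7, 11.0 and 8.99 (1.17 ± 0.22, adjusted p = 7.2e-05), and IL-13 raised it to 7.35, 5.66, 8.49 and 7.55 (0.78 ± 0.22, adjusted p = 0.037), both without overlap. The IL-13 call was lost in 6 of 19 alternative settings.

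The JUN peak with the highest F was chr1:58779914-58780414 at 3.88 kb, with a TGACTCA string. It fell with TGF-β1 from 15.6, 13.8, 14.6 and 16.4 to 11.1, 8.42, 8.21 and 10.2 per Mb (-0.65 ± 0.16, adjusted p = 0.0059). Means of 21.4 ± 3.84 with IL-17A and 21.4 ± 2.72 with OSM lay above the unstimulated 15.1 ± 1.13, but neither comparison was called.

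JUNB encodes a Jun protein that often restrains JUN, and 1 of its 4 peaks was called. TNF lowered the promoter-class peak 0.789 kb before the start by 0.85 ± 0.20 on the log2 scale (adjusted p = 0.0014). The strongest JUNB peak, 1.49 kb before the start, was called for none, with group means from 37.5 with IL-1β to 51.4 with IFNγ against 42.1 ± 2.28 in unstimulated cells.

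JUND encodes the Jun protein that is present in most resting cells. OSM raised 3 of its 6 peaks. The promoter peak with the CRE, chr19:18281411-18281911, went from 20.5, 18.4, 21.5 and 17.9 to 33.7, 28.0, 29.0 and 21.8 per Mb (0.50 ± 0.13, adjusted p = 0.011), without overlap. That call was lost in 4 of 19 alternative settings, with loess offsets and GC correction among them, where the change fell to as little as 0.24. The distal peak chr19:18277854-18278354, 3.52 kb after the start, went from 3.35, 3.52, 3.63 and 3.87 to 10.2, 8.44, 6.12 and 8.88 (1.10 ± 0.27, adjusted p = 0.0064), also without overlap. The adjacent peak chr19:18278634-18279134 was lowered by IL-6, IFNα and TGF-β1 from 6.62 ± 1.25 to 2.36 ± 1.32, 3.03 ± 0.0569 and 3.26 ± 0.684 per Mb (adjusted p = 0.00058, 0.023 and 0.017). The IL-6 call was lost without IL-6 replicate 4, whose value was 0.498, and the IFNα call was lost in 7 of 19 alternative settings.

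BATF and BATF3 encode short zipper proteins best known from lymphocytes and dendritic cells. The BATF promoter peak, chr14:75521660-75522160, averaged 0.731 per Mb over all libraries and was called for 0 cytokines, with the highest group mean of 1.67 ± 0.684 in IFNγ libraries. Inside the gene, the peak 13.6 kb after the start, chr14:75535834-75536334, was far more accessible and held 2 TGANTCA strings. IL-13 lowered it from 16.0, 22.1, 18.4 and 16.7 to 9.73, 10.6, 9.39 and 12.9 per Mb, without overlap (-0.75 ± 0.14, adjusted p = 0.00013), and it was called for no other cytokine.

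At BATF3 the calls were rises. IFNγ raised the intronic peak chr1:212698989-212699489, 0.601 kb after the start, from 3.27, 2.89, 1.96 and 1.70 to 5.16, 6.62, 8.65 and 4.08 per Mb (1.15 ± 0.29, adjusted p = 0.0074). OSM raised the distal peak chr1:212667348-212667848 from 18.4, 19.7, 14.7 and 19.2 to 25.5, 27.6, 26.0 and 24.7 (0.53 ± 0.13, adjusted p = 0.0095). IFNγ and IFNα libraries averaged 24.6 ± 2.55 and 24.2 ± 2.05 at that peak without a call. The BATF3 promoter peak, chr1:212700943-212701443, was called for none and did not vary by the F-test (adjusted p = 0.11).

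ATF3 was described in 2 parts, because the deposited names split it. The 17 peaks named ATF3 lie between 52.0 and 19.2 kb before the start of its MANE transcript (the reference transcript agreed between annotations), around and downstream of an upstream start. IFNγ raised 2 of them. The intronic peak chr1:212579898-212580398 went from 0.606, 0.147, 1.71 and 1.94 to 5.91, 5.60, 5.81 and 7.07 per Mb, without overlap and with the largest change against unstimulated cells of any call at the 200 peaks (2.23 ± 0.35, adjusted p = 6.3e-07). IFNα libraries averaged 2.23 ± 0.605 there and were not called, and the direct difference between IFNα and IFNγ was -1.30 ± 0.35 (adjusted p = 0.032), which was lost in 7 of 19 alternative settings. The second peak, 41.5 kb before the MANE start, rose by 0.72 ± 0.17 with IFNγ (adjusted p = 0.0035). TGF-β1 was called at 2 low ATF3 peaks. At the upstream promoter-class peak, chr1:212565084-212565584, unstimulated libraries held 0.0240, 0.377, 0 and 0.341 per Mb, all at the limit of 3 reads, and TGF-β1 libraries 0.592, 1.55, 1.00 and 1.12 (adjusted p = 0.048). This call was lost in 10 of 18 alternative settings.

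Peaks inside the member genes that carry another gene's name fall outside the rule and were tested in the same fit. There were 63 of them, 29 in FOSL2 (named FLJ31356), 26 in ATF3 (named FAM71A), 4 in FOSL1 (CCDC85B), 3 in FOSB (ERCC1) and 1 in JUNB (HOOK2). Those named next were chosen after their values were seen. The peak just before the ATF3 MANE start, chr1:212608261-212608761, held 30.1 ± 2.98 per Mb in unstimulated cells, more than the 25.5 ± 0.867 of the FOSL2 promoter-class peak, and was called for none of the 10 cytokines. At 12.3 kb before that start, chr1:212596255-212596755, IFNγ raised a peak with 2 TGANTCA strings from 23.0 ± 4.17 to 39.6 ± 2.62 (0.78 ± 0.12, adjusted p = 3e-07). IFNα, TNF and OSM raised it by 0.49, 0.38 and 0.44 on the log2 scale. TNF raised 2 of the 4 CCDC85B peaks inside FOSL1, by 1.40 and 0.93.

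The 3 ERCC1-named peaks over the end of FOSB were all raised by OSM. They rose by 1.82 ± 0.30, 2.22 ± 0.29 and 2.11 ± 0.29 (adjusted p = 2.7e-06, 8.6e-10 and 8.2e-09), and at the middle one the level went from 3.16 ± 0.971 to 16.2 ± 1.73 per Mb. These changes were larger than at the 4 FOSB-named peaks before them. IL-6 lowered 1 of the 3, IL-13 1 and TNF 1.

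Direct comparisons were made for 3 pairs of cytokines. OSM and IL-6 signal through receptors that share gp130, and both were given at 10 ng/ml. Between them 32 member peaks differed, with 31 higher in OSM and 1 lower (background 1.63% higher and 1.01% lower). All 7 FOS peaks from 1.17 to 5.27 kb were higher in OSM, with log2 differences of 1.36 to 2.00, and all 4 FOSB peaks from 2.40 to 4.84 kb, with 1.87 to 3.10. Without IL-6 replicate 4, 22 member peaks differed, of which 10 were FOS peaks higher in OSM and 5 FOSB peaks. JUN at 3.88 kb (1.00 ± 0.16, adjusted p = 2.6e-06) and JUND at 2.74 kb (1.77 ± 0.26, adjusted p = 5e-08) were also higher in OSM. The 1 peak lower in OSM was a FOSL2 peak 40.4 kb upstream (-1.52 ± 0.38, adjusted p = 0.0074).

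IL-1β and TNF were given, by the study's methods, at 0.1 and 10 ng/ml, so their values are side by side and dose and cytokine cannot be told apart. Between them 10 member peaks differed, 9 higher in IL-1β and 1 lower (background 0.316% and 1%). Of the 9, 8 were FOS peaks, including the promoter peak at 1.73 kb (0.62 ± 0.13, adjusted p = 0.0016) and the exonic peak at 2.13 kb (0.95 ± 0.17, adjusted p = 4.7e-05). Without TNF replicate 2 the counts were 2 FOS and 2 member peaks, without TNF replicate 3 or 4 they were 4 and 5 FOS peaks, and without IL-1β replicate 1, 2 or 3 they were 5. At the FOS peak 11.6 kb upstream, where both cytokines lowered accessibility, the direct difference of -0.61 ± 0.18 was not called (adjusted p = 0.074).

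IFNα and IFNγ differed at 5 member peaks, all lower in IFNα (background 1.17% in either direction). These were the 2 ATF3 peaks that IFNγ raised, 2 BATF peaks at 7.31 and 2.42 kb upstream (-1.18 ± 0.29 and -0.78 ± 0.21, adjusted p = 0.012 and 0.033) and the FOS peak 36.1 kb upstream. The count was 1 without IFNγ replicate 1 or 2, 2 without IFNγ replicate 3 or IFNα replicate 4, and 3 without any of the other 4 libraries.

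The AP-1 string TGANTCA itself was present in 38 of the 200 member peaks (19.0%) and in 25.7% of all tested peaks, and the CRE in 5 members (2.50%) and 0.530% of all. Of the 18 member peaks that TNF lowered 0 held TGANTCA, while 20.8% of all peaks lowered by TNF did. Of these 18, 16 were FOS peaks, including a run of neighbouring peaks, so they are not separate loci. Of the 21 that OSM raised 6 held it, against 46.4% of all peaks raised by OSM. Over all tested peaks the string was found in 54.4% of those raised by TNF and 60.1% of those lowered by IL-13.

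Other genes of the pathway were taken from lists. Of 418 peaks named for 15 MAP kinase cascade genes, 74 varied by the F-test (17.7%), and of 414 peaks of 10 other zipper partners such as JDP2 and the MAF genes, 64 did (15.5%), against 21.1% of all. Peaks of 9 dual-specificity phosphatases, which switch MAP kinases off, varied in 106 of 373 cases (28.4%). TNF raised 16 of these peaks and lowered 2, and IL-1β raised 10 and lowered 6. IFNγ raised 13 and lowered 0, while 84.3% of all its calls were raised. Its rises were led by a distal-class peak named for DUSP1, chr5:172788329-172788829 (2.52 ± 0.37, adjusted p = 5.2e-08). Peaks of 13 serum response and immediate early genes varied in 137 of 549 cases (25.0%), with TGF-β1 raising 19 and lowering 11. TGF-β1 raised 3 and lowered 3 of the 23 peaks named for SRF, which drives FOS transcription after serum. The largest rise was at the intronic-class peak chr6:43125581-43126081 (2.40 ± 0.34, adjusted p = 1.2e-08). That peak is tied to SRF by name only and lies well away from the SRF exonic-class peak chr6:43171388-43171888.

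Known AP-1 target genes varied in 101 of 236 peaks (42.8%). TGF-β1 raised 27 and lowered 8 of these, TNF raised 19 and lowered 2, and IL-13 raised 1 and lowered 5. With TNF the largest rise was at a distal-class peak named for MMP10, a matrix protease (2.14 ± 0.27, adjusted p = 1.3e-11). With IL-13 the largest fall was at a distal-class peak named for MMP3, another matrix protease (-1.34 ± 0.25, adjusted p = 6e-05).

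For the 3 genes with the highest single F, the peaks of other genes most alike over the 11 group means were listed by Pearson's r, as a description over 11 points that share libraries. The FOS peak 11.6 kb upstream was most like an intronic FBXL14 peak (r = 0.981), followed by peaks of THY1 (0.974), METTL21C, MGC12916 and RUNDC3B (0.970). The FOSL2 promoter-class peak was most like peaks of CHI3L2 (0.980), MIR3152, MEGF9, PCSK5 and SPACA9 (0.969). The FOSB peak at 4.84 kb was most like a PHOSPHO2-KLHL23 promoter peak (0.965), an ERCC1 peak (0.964) and peaks of TBCA, SRSF7 and IQCN (0.946).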

How the data were processed

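Accessibility was measured by ATAC-seq in 44 libraries. Per the labels and the study's methods, the authors aligned reads with the ENCODE pipeline to hg38, called peaks with MACS2 and summed base coverage over 500-base peaks. The deposited signal is this coverage (samtools bedcov, not read counts). The study describes 500-base peaks from its single-cell ATAC-seq data (MACS2, merged in ArchR) and a separate consensus of bulk peaks, without saying which set this table holds.

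Coverage was divided by the library total in Mb and a composition factor (trimmed by 30% of log ratios and 5% of means over 148332 peaks above 0 in every library), and log2(value + 0.5) was fitted with limma 3.58.1 in R 4.3.3, with group as the only term and a mean-variance trend. A fold change is on this scale and understates changes of low peaks. The fit covered 407176 peaks with a log2 mean above -3 (207 left out), and p-values were Benjamini-Hochberg adjusted per comparison, with calls at 0.05. Errors are SE for log2 changes and SD for levels.

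Named peaks were, per gene, the promoter-class peak with the highest mean and the peak with the highest F, and per cytokine the 2 largest rises and falls with a mean of at least 1 per Mb. Other peaks, including runs of neighbouring peaks, were chosen after their values were seen. Members and lists were chosen with earlier results of these data known. Distances run from the peak centre to the MANE start in GENCODE. On simulated data for TNF against unstimulated cells over 20000 peaks, 14% of 100 peaks changed 2-fold and 72% of 100 changed 4-fold were recovered, with 5 false calls. Alternatives covered scaling, pseudocounts, filters, weights, GC, a replicate block and leaving out each library. Some items are not reported here.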

Additional observations from a re-analysis of the deposited data

Results flagged for a closer look

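In 10 of 247 sets of 4 libraries (236 of a peak within a group and 11 of library totals), 1 library stood far from the other 3 by Dixon's criterion at the 95% level, which is 4.05% of them. Chance alone gives about 1 in 20. The causes were not tested.

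Of the peak values, 3 touch a result of the report. The FOS promoter-class peak held 29.9 per Mb in unstimulated replicate 3, the highest of its group, and TNF lowered 15 FOS peaks without that library. The JUN peak 3.88 kb after the start held 6.51 per Mb in IL-6 replicate 4, the shallowest library and the lowest of its group. The JUND peak 3.52 kb after the start held 0.366 per Mb in IL-13 replicate 2, the lowest of its group.

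The other 4 were at promoter-class peaks. BATF3 held 1.99 per Mb in IL-6 replicate 4, the lowest of its group. FOSB held 7.61 in TNF replicate 3, the highest of its group. JUN held 48.0 in IL-13 replicate 2 and JUND 23.0 in IFNγ replicate 1, both the lowest of their groups.

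Total coverage was highest in IFNα replicate 2 (823.1 Mb), IFNγ replicate 2 (657.5 Mb) and TNF replicate 4 (726.6 Mb), each far above the other 3 libraries of its group.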

How the results depend on the processing

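Of 78 changes at named peaks, 44 kept their call in every alternative, and none of the results changed direction. With a GC correction 35 member peaks were called for OSM, 5 for IL-6, 5 for IL-1β against TNF and 49 for OSM against IL-6. With a composition factor over all tested peaks, chosen after seeing the data, these counts were 45, 5, 5 and 52. Array quality weights gave 35 for OSM, loess offsets 6 for TGF-β1, a mean of at least 1 per Mb 13 for IFNγ, and a pseudocount of 0.1 gave 3 for IFNα against IFNγ. The raised share of all calls moved with GC correction and the composition factor from 61.6% to 88.1% and 79.1% for OSM against IL-6. For IL-6 it moved from 39.9% to 53.2% with the composition factor and to 65.0% with weights, for IL-13 from 45.3% to 57.1% with GC correction, and for OSM from 54.6% to 42.9% with weights. The causes were not tested. Searching for the CRE in place of TGANTCA gave 2.50% of member peaks in place of 19.0%.

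When each library was left out in turn, the count of member peaks ran from 73 to 82 for the F-test, 8 to 13 for IL-1β, 3 to 10 for IL-6 (3 without replicate 4), 9 to 14 for IL-13, 0 to 2 for IL-17A (2 without replicate 4), 0 to 0 for IL-22, 2 to 4 for IFNα, 5 to 9 for IFNγ, 8 to 13 for TGF-β1, 21 to 23 for TNF and 14 to 20 for OSM. It ran from 2 to 8 for IL-1β against TNF, 22 to 33 for OSM against IL-6 and 1 to 3 for IFNα against IFNγ.

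Replicate numbers paired the libraries weakly at most. Deviations of same-numbered libraries had a mean correlation of 0.0028, and 0 of 220 pairs were over 0.1. Even so, 19 of 44 libraries correlated best with their own number, a larger share than 4 equally likely numbers would give. With the number as a replicate block, 80 member peaks varied by the F-test, 23 were called for TNF and 22 for OSM.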
